A study of Mus musculus with 16 samples.

Results

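Sst, Cort, Npy, Vip, Tac1, Tac2, Crh, Cck and Pdyn encode the precursors of neuropeptides that are made by inhibitory interneurons of the cerebral cortex. They were picked by symbol from the deposited count table, where 9 of 9 symbols matched 1 row each, out of 55385 genes. All 9 passed the low-count filter that left 17555 genes for testing, and their lowest count in any library was 69. The study sequenced polyadenylated RNA of brain cortex from mice aged 9 months, with 4 libraries in each of 4 genotype groups (2 females and 2 males each). The groups were Dp16, 5xFAD, their combination 5xFAD-Dp16, and wild-type C57BL/6J as the control, and the labels name no treatment.

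Dp16 mice carry a duplicated segment of mouse chromosome 16 and model trisomy 21, so every gene of that segment is present in an added dose and no single gene of it is tested. 5xFAD mice model Alzheimer's disease with transgenes under the Thy1 promoter, which is active in forebrain neurons, and deposit amyloid. None of the 9 genes lies in the triplicated segment, taken here as chromosome 16 from 75540514 to 97962622 (GRCm38). Sst is on the same chromosome outside it, at 23889573 to 23890958. The comparisons address what each alteration does to these genes without and with the other.

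In GENCODE M21 coordinates (GRCm38) the genes related to somatostatin are Sst (ENSMUSG00000004366.4) and Cort (ENSMUSG00000028971.4), the latter at chr4:149125034-149126763 on the minus strand. Npy lies at chr6:49822710-49829507 (plus), Vip at chr10:5639218-5647617 (plus), Tac1 at chr6:7554879-7565834 (plus) and Tac2 (ENSMUSG00000025400.11) at chr10:127724478-127731768 (plus). Crh lies at chr3:19693401-19695396 (minus), Cck at chr9:121489824-121495694 (minus) and Pdyn at chr2:129686565-129699844 (minus). No member overlaps another annotated gene.

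Neuropeptides are cut from larger precursors in the secretory pathway, stored in dense-core vesicles and released during sustained firing, and they act on G protein-coupled receptors. In cortex they also mark interneuron classes: somatostatin cells target dendrites of pyramidal neurons, VIP cells inhibit other interneurons, and cholecystokinin is made by a class of basket cells. Transcription of several of these genes is known to respond to cyclic AMP through the response element TGACGTCA, first described in the somatostatin gene.

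The sequence upstream of the RefSeq starts (GRCm38.p6) is shown because the genes described below differ in this element. A window of 250 bases before the start was found for 8 of the 9 genes, Pdyn with 2 windows. Crh had no window and was not searched. The windows were searched on both strands for TGACGTCA and for its shorter form TGACG, which is contained in it. The full element was found in the window of Sst, its first base at position -48 from the start, and in 1.55% of all 32851 windows of the same length. GENCODE starts Sst and Tac1 farther upstream than RefSeq, so 114 bases of the Sst window and 182 of the Tac1 window lie in exons of those genes. The Sst element is within that exonic part. The shorter form was found in 5 genes (Sst, Cort, Vip, Tac1, Cck) and in 17.8% of all windows. The sites are printed on the gene's strand with the match in capitals, with Cort's first base of the match at -18, Vip's at -79, Cck's at -47 and the printed one of Tac1 at -197.
Sst (chr16:23890874-23890903, minus strand): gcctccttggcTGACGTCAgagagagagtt
Cort (chr4:149126764-149126792, minus strand): tccggcttgtgCGTCAccgcgtgagtgtg
Vip (chr10:5639128-5639157, plus strand): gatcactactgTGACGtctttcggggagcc
Tac1 (chr6:7554853-7554882, plus strand): ccctaaaattgCGTCAtttcgaacacaatt
Cck (chr9:121495723-121495752, minus strand): ctgctggactgCGTCAgcactgggtaaaca

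The whole windows of Cort and Tac2, the genes with the largest difference in Dp16 carriers, are given below with the same letters in capitals. Cort's window is chr4:149126764-149127013, minus strand, and Tac2's is chr10:127724228-127724477, plus strand. The Cort window held the shorter form, and these letters were not in the Tac2 window. A match describes the sequence and shows no binding.
Cort: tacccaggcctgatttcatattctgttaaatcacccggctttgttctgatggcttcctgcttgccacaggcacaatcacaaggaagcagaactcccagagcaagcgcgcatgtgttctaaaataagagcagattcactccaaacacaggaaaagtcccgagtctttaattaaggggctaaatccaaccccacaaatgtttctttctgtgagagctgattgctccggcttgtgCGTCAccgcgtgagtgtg
Tac2: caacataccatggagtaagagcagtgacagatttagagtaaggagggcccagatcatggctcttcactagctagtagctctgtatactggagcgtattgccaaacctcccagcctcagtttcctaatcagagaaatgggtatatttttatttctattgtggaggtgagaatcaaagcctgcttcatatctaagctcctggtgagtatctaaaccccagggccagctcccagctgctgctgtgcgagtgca

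The libraries held 16874481 to 22912168 counts. Thy1, whose promoter drives the transgenes, read 1542 to 2205 CPM (counts scaled to a common library size) in the 8 libraries labelled 5xFAD or 5xFAD-Dp16 and 736 to 1051 in the other 8. Long and short genes were weighted unequally among libraries. A length slope per library, obtained by regressing each gene's log2 deviation from its mean on its log2 length, ran from -0.44 to 0.28, with wild-type replicate 3 lowest, then Dp16 replicates 4 and 3. Markers of excitatory cortical neurons summed to 2532 to 7501 CPM per library, and markers of striatal projection neurons, a neighbouring tissue, to 522 to 1371 CPM. Labels name each library as a separate sample and nothing in them describes litters or cohorts, so the p-values measure the spread between these samples.

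Per length of transcript, the 9 genes spanned about 2 orders of magnitude. Sst, which encodes somatostatin, stood at 602 ± 146 RPKM (reads scaled by library size and transcript length; mean ± SD over 16 libraries). Cck, encoding cholecystokinin, stood at 419 ± 62.5 RPKM, and its values overlapped those of Sst. Npy, encoding neuropeptide Y, stood at 207 ± 37.9 RPKM, with every library (143 to 264) below the lowest Cck value of 326.

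The other 6 were lower still, and none of their libraries reached the lowest Npy value. Tac1, the precursor of substance P and neurokinin A, had 54.0 ± 23.8 RPKM and Vip, encoding vasoactive intestinal peptide, 38.3 ± 11.7, and these 2 overlapped. Cort, encoding cortistatin, a peptide close to somatostatin, had 20.1 ± 7.26 RPKM, and Pdyn, the precursor of dynorphins, 16.2 ± 3.57. Tac2, encoding neurokinin B, had 8.18 ± 2.43 RPKM and Crh, encoding corticotropin-releasing hormone, 5.76 ± 1.78. Among these 6, each gene's range overlapped that of its neighbour in the order.

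The spread between libraries was unequal. The highest CPM over 16 libraries was 4.90 times the lowest for Tac1, 4.33 times for Vip, 3.52 times for Cort, 3.25 times for Tac2 and 3.14 times for Sst. It was 2.95 times for Crh, 2.11 times for Pdyn, 1.84 times for Npy and 1.81 times for Cck. Values below are CPM normalized by the trimmed mean of M values (TMM), a scale on which libraries are compared within a gene.

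**Figure D1:**
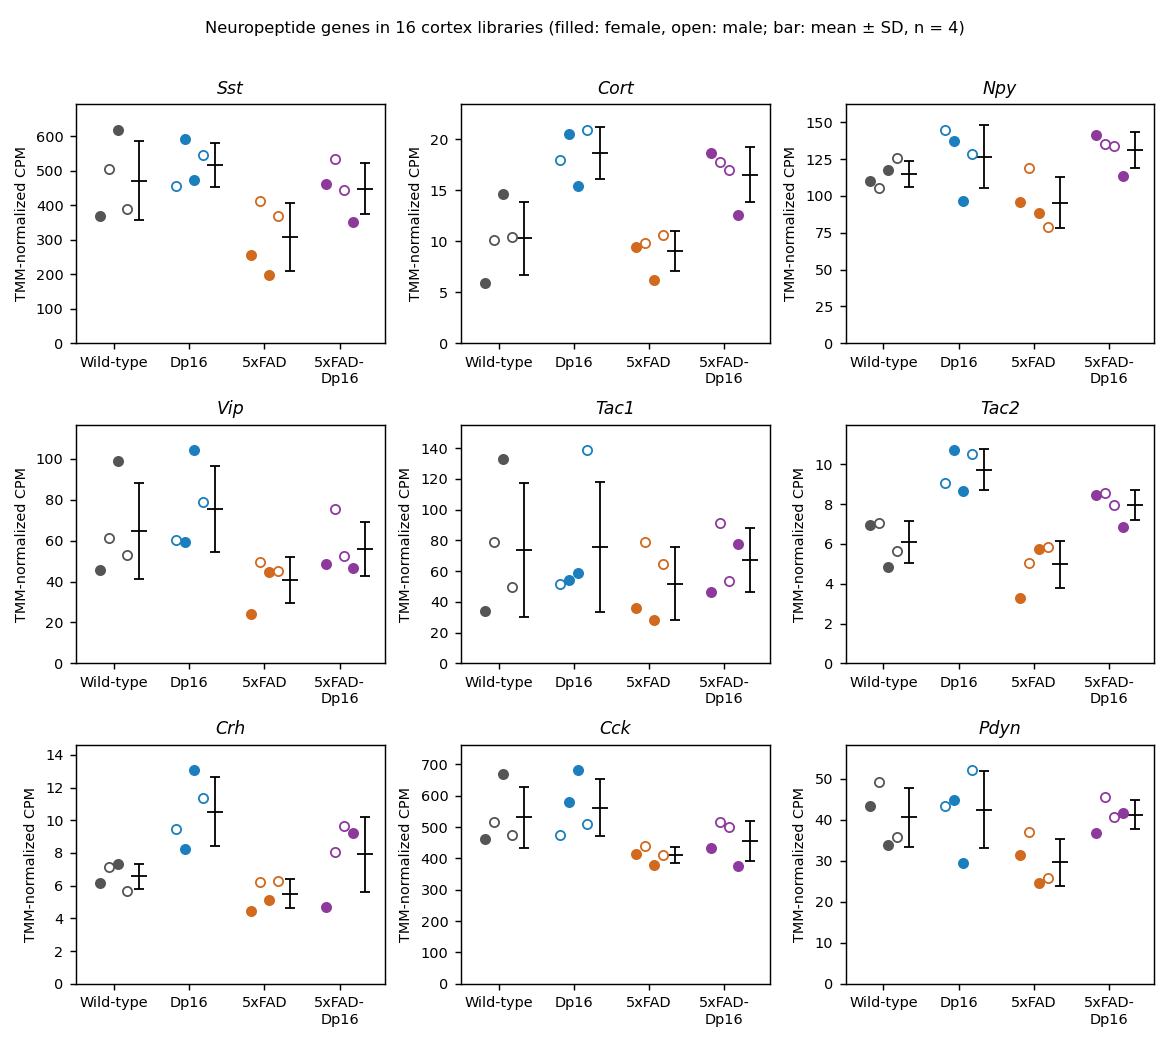
Level of each of the 9 genes (vertical axis, TMM-normalized CPM from 0) in each library by genotype group; filled points are females, open points males, and the bar is the mean ± SD (n = 4). The 4 Dp16 points of Cort, Tac2 and Crh lie above all 4 wild-type points, and 5xFAD has the lowest group mean for every gene.

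In 5xFAD against wild-type, all 9 genes had lower means, and none was called by edgeR's quasi-likelihood test over all genes. The median log2 fold change of the 9 was −0.37, against −0.05 for all 17555 genes, of which 58.8% were below 0. The background of calls was 1.52% in either direction and 0.0114% lower. An unadjusted p under 0.05 was reached by 4 of the 9, all lower (Sst, Vip, Pdyn, Cck), against 1.91% of all genes lower at that level. That count was 0 with only the groups compared, 1 without 5xFAD replicate 3, and 2 without wild-type replicate 2 or 3 or 5xFAD replicate 1 or 4. In bulk tissue, fewer cells of a type and less RNA per cell cannot be told apart.

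Sst read 370.2, 506, 618 and 390.1 CPM in the 4 wild-type libraries and 257, 411, 197 and 369 CPM in the 4 5xFAD libraries. The 2 females of 5xFAD had its lowest values, 1 male lay just under the lowest wild-type value, and the other male was within the wild-type range. The group means were 471 ± 115 and 309 ± 98.8 CPM (SD, n = 4), a log2 fold change of −0.64 ± 0.22 (SE; edgeR unadjusted p = 0.0116, adjusted p = 0.339). Cort, whose peptide acts on the same receptors as somatostatin, stood at 10.3 ± 3.54 and 9.01 ± 1.96 CPM (−0.20 ± 0.24, edgeR adjusted p = 0.955). The difference for Cort was smaller than the spread within either group, and without wild-type replicate 3 it was 0.09.

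Npy, made by neurogliaform cells and by part of the somatostatin cells, stood at 115 ± 8.79 CPM in wild-type and 95.6 ± 17.0 CPM in 5xFAD (−0.27 ± 0.16, edgeR adjusted p = 0.863). Its 5xFAD values of 96.1, 119, 88.4 and 78.9 CPM overlapped the wild-type values of 110.1, 106, 118 and 126 CPM in 1 library only.

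Vip, the marker of interneurons that inhibit other interneurons, read 45.7, 61.0, 98.6 and 53.1 CPM in wild-type and 24.1, 49.3, 44.9 and 45.0 CPM in 5xFAD. All 5xFAD libraries but 1 were below the lowest wild-type value, and the wild-type mean was raised by replicate 3 at 98.6. The log2 fold change was −0.67 ± 0.28 (edgeR unadjusted p = 0.0306, adjusted p = 0.579) and −0.35 without that replicate. Of the tachykinin precursors, Tac1 was at 73.8 ± 43.7 and 51.9 ± 23.8 CPM (−0.62 ± 0.43, edgeR adjusted p = 0.934). Its wild-type libraries ran from 33.8 to 133 CPM, wider than the difference between groups, and without wild-type replicate 3 the difference was 0.02. Tac2 was at 6.11 ± 1.06 and 4.98 ± 1.19 CPM (−0.30 ± 0.20, edgeR adjusted p = 0.925).

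Crh, the stress-axis hormone gene that is also made by cortical interneurons, stood at 6.57 ± 0.774 CPM in wild-type and 5.51 ± 0.897 CPM in 5xFAD (−0.26 ± 0.23, edgeR adjusted p = 0.955). Cck, which pyramidal neurons of cortex express too, read 461, 518, 671 and 473 CPM in wild-type and 413, 438, 379 and 412 CPM in 5xFAD. It was the 1 gene of the 9 whose groups did not overlap, against 1.52% of all genes lower without overlap, with a log2 fold change of −0.37 ± 0.17 (edgeR unadjusted p = 0.0414, adjusted p = 0.656). Pdyn, whose dynorphins act on kappa opioid receptors, read 43.4, 49.3, 33.8 and 35.8 CPM in wild-type and 31.3, 37.1, 24.6 and 25.7 CPM in 5xFAD. Its groups overlapped in 1 5xFAD library, and the log2 fold change was −0.45 ± 0.18 (edgeR unadjusted p = 0.0209, adjusted p = 0.475).

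On the Dp16 background none of the 9 was called for the same alteration. In 5xFAD-Dp16 against Dp16, which shares no library with 5xFAD against wild-type, 8 of the 9 were below 0, as were 48.8% of all genes. Their median was −0.22, none had an unadjusted p under 0.05 (3.92% of all genes did), and edgeR called 0 of the 9, with 0.387% of all genes called. Sst read 456, 593, 473 and 546 CPM in Dp16 and 462, 534, 444 and 353 CPM in 5xFAD-Dp16, a log2 fold change of −0.22 ± 0.22. Of the 5xFAD-Dp16 libraries 2 lay within the Dp16 range and 2 below it. Vip stood at 75.5 ± 21.0 and 55.8 ± 13.3 CPM (−0.44 ± 0.28), Crh at 10.5 ± 2.11 and 7.91 ± 2.27 CPM (−0.42 ± 0.22), and Cck at 561 ± 90.9 and 456 ± 64.2 CPM (−0.29 ± 0.17).

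Tac2 was the gene whose groups did not overlap there, lower in 5xFAD-Dp16, as were 0.877% of all genes. The log2 fold change of Tac2 was −0.29 ± 0.20. Npy (0.05 ± 0.16), Pdyn (−0.04 ± 0.17), Tac1 (−0.13 ± 0.42) and Cort (−0.18 ± 0.23) stood near 0 relative to their errors. Whether the transgene difference depended on the duplication was tested with the interaction term, and edgeR called 0 of the 9 and 0 of all 17555 genes (0%), with 239 (1.36%) of the latter at an unadjusted p under 0.05 and 1 called by DESeq2. The smallest unadjusted p among the 9 was 0.113, for Pdyn (0.42 ± 0.25, edgeR adjusted p = 1.00). The interaction was above 0 for 8 of the 9 and for 57.1% of all genes, and for 4 of the 9 without wild-type replicate 3. It was 0.42 ± 0.31 for Sst, 0.02 ± 0.33 for Cort and 0.00 ± 0.27 for Tac2.

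**Figure D2:**
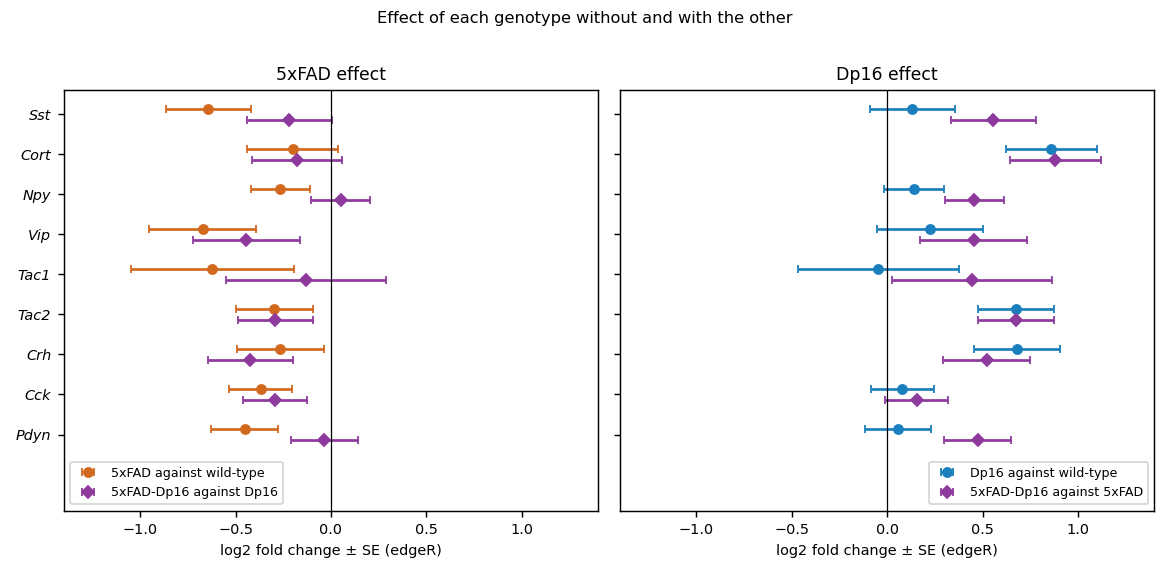
Log2 fold change ± SE (horizontal axis, edgeR) of each gene for the 5xFAD alteration without and with Dp16 (left) and for Dp16 without and with the 5xFAD transgenes (right). Within each panel the pair of comparisons shares no library; the right-hand values of Cort and Tac2 are nearly equal in both backgrounds (0.86 and 0.88 for Cort, 0.67 and 0.68 for Tac2).

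Averaged over both backgrounds, with 8 carrier and 8 non-carrier libraries, all 9 genes were below 0 in 5xFAD carriers, as were 54.2% of all genes, with a median of −0.33 against −0.02 for all genes. edgeR called 0 of the 9 and 2.18% of all genes, none of them lower (0%). The smallest adjusted p of the 9 was 0.292. Vip stood at 48.3 CPM in carriers and 70.1 in non-carriers (−0.56 ± 0.20), Sst at 378 and 494 (−0.43 ± 0.16), Crh at 6.71 and 8.55 (−0.34 ± 0.16) and Cck at 433 and 546 (−0.33 ± 0.12), each with an unadjusted p under 0.05, as had 2.48% of all genes with lower means. Tac1 (−0.38 ± 0.30), Tac2 (−0.29 ± 0.14), Pdyn (−0.24 ± 0.12), Cort (−0.19 ± 0.17) and Npy (−0.11 ± 0.11) did not reach it.

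The calls for these genes changed when the length slope of the libraries entered the fit as a covariate. In 5xFAD against wild-type 3 of the 9 then fell, in a fit that called 5.27% of all genes. They were Sst (−0.60 ± 0.12, edgeR adjusted p = 0.00489, range over 27 alternatives 0.00489 to 0.998), Vip (−0.58 ± 0.15, adjusted p = 0.0269, range 0.0269 to 1.00) and Cck (−0.34 ± 0.10, adjusted p = 0.0468, range 0.0468 to 1.00). The same 3 fell in 5xFAD carriers against non-carriers, with 5.99% of all genes called: Sst by 0.36, Vip by 0.43 and Cck by 0.28 on the log2 scale. The standard errors were smaller than in the fit without the slope. In 5xFAD against wild-type the estimates were nearer 0 without wild-type replicate 3 (Sst −0.43, Vip −0.35, Cck −0.23) and without the 3 libraries of lowest slope (Sst −0.40, Vip −0.31, Cck −0.20), and neither fit called them.

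In Dp16 mice a different set of the 9 stood apart from wild-type. Cort, Tac2 and Crh were higher in every Dp16 library than in every wild-type library, a lack of overlap shown by 0.98% of all genes in that direction. edgeR called 0 of the 9 in Dp16 against wild-type, where 0.0057% of all genes were called, and those 3 had an unadjusted p under 0.05, as did 1.29% of all genes with higher means. This comparison shares the wild-type libraries with 5xFAD against wild-type.

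Cort read 5.94, 10.1, 14.6 and 10.4 CPM in wild-type and 17.99, 20.5, 15.4 and 20.9 CPM in Dp16. The lowest Dp16 value lay just above the highest wild-type value, from replicate 3. The means were 10.3 ± 3.54 and 18.7 ± 2.56 CPM, a log2 fold change of 0.86 ± 0.24 (edgeR unadjusted p = 0.00251, adjusted p = 0.960). The 4 5xFAD libraries had 9.43, 9.86, 6.15 and 10.6 CPM of Cort and the 4 5xFAD-Dp16 libraries 18.7, 17.8, 17.0 and 12.6 CPM. These groups did not overlap either, and the log2 fold change was 0.88 ± 0.24 (edgeR unadjusted p = 0.00211, adjusted p = 0.977). The 2 estimates come from separate libraries.

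Tac2 read 6.93, 7.03, 4.83 and 5.64 CPM in wild-type and 9.06, 10.7, 8.63 and 10.5 CPM in Dp16, so every Dp16 library was above the wild-type range. Its log2 fold change was 0.67 ± 0.20 (edgeR unadjusted p = 0.00388, adjusted p = 1.00). With the transgenes, Tac2 read 3.29, 5.03, 5.76 and 5.84 CPM in 5xFAD and 8.43, 8.55, 7.97 and 6.86 CPM in 5xFAD-Dp16, again with no overlap (0.68 ± 0.20, edgeR unadjusted p = 0.00382, adjusted p = 1.00). Counts of Tac2 were 69 to 231 per library, which limits the precision of each value.

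Crh read 6.17, 7.13, 7.30 and 5.69 CPM in wild-type and 9.45, 8.24, 13.05 and 11.3 CPM in Dp16 (0.68 ± 0.23, edgeR unadjusted p = 0.00879, adjusted p = 1.00). All Dp16 values exceeded all wild-type values. In 5xFAD-Dp16 it read 4.66, 8.06, 9.67 and 9.24 CPM against 4.43, 6.21, 5.11 and 6.28 CPM in 5xFAD, where replicate 1 of 5xFAD-Dp16 lay inside the 5xFAD range and the others lay above it (0.52 ± 0.23, edgeR adjusted p = 1.00).

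The other 6 genes, uncalled like Cort, Tac2 and Crh, did not reach an unadjusted p under 0.05 between Dp16 and wild-type. Their log2 fold changes ran from −0.05 ± 0.42 for Tac1 to 0.22 ± 0.28 for Vip. Without wild-type replicate 3 these were 0.62 for Tac1, 0.56 for Vip and 0.36 for Sst, so the estimates depend on that library. In 5xFAD-Dp16 against 5xFAD all 9 were above 0, as were 50.9% of all genes, with a median of 0.47. edgeR called 0 of the 9 there, with 0.0057% of all genes called. The groups of 2 genes (Cort, Tac2) did not overlap, against 1.73% of all genes higher without overlap, and 6 genes had an unadjusted p under 0.05, against 1.63% of all genes higher at that level. Without 5xFAD replicate 3 that count was 3. Beside Cort, Tac2 and Crh these were Sst (448 ± 74.5 against 309 ± 98.8 CPM, 0.56 ± 0.22), Pdyn (41.2 ± 3.54 against 29.7 ± 5.73 CPM, 0.47 ± 0.18) and Npy (131 ± 12.1 against 95.6 ± 17.0 CPM, 0.46 ± 0.16). The 5xFAD libraries serve as the reference here and as the test group against wild-type, so a low 5xFAD mean enters both comparisons. Markers of other cells differed there too: all 8 striatal markers were above 0 (median 0.43, 1 with an unadjusted p under 0.05), all 6 microglial markers below 0 (median −0.54, 5 with such a p) and all 6 astrocyte markers below 0 (median −0.37, 3 with such a p), with none called. Their part in the result was not tested.

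Over all 16 libraries, the 8 carriers of Dp16 had higher means of all 9 genes than the 8 non-carriers, as had 46.3% of all genes, with a median of 0.34 against −0.02 for all genes. Cort stood at 17.6 CPM in carriers and 9.64 CPM in non-carriers, a log2 fold change of 0.87 ± 0.17 (edgeR unadjusted p = 0.00011, adjusted p = 0.0963). Tac2 stood at 8.84 and 5.54 CPM (0.68 ± 0.14, edgeR unadjusted p = 0.000215, adjusted p = 0.135) and Crh at 9.21 and 6.04 CPM (0.60 ± 0.16, unadjusted p = 0.00188, adjusted p = 0.495). None of the 9 passed the adjusted threshold, which 0.0968% of all genes passed. Sst (0.34 ± 0.16), Npy (0.30 ± 0.11) and Pdyn (0.27 ± 0.12) had an unadjusted p under 0.05 as well, which 2.02% of all genes reached with higher means, and Vip (0.34 ± 0.20), Tac1 (0.20 ± 0.30) and Cck (0.12 ± 0.12) did not. In the same comparison all 6 microglial markers were below 0 (median −0.35, 4 with an unadjusted p under 0.05), as were all 6 astrocyte markers (median −0.21). All 8 striatal markers were above 0 (median 0.12), as were all 6 choroid plexus markers (median 1.74, 4 with such a p). None of these was called.

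For Cort and Tac2 the call depended on the fit, and every alternative kept the direction. Cort was called as higher in Dp16 carriers under 8 of 26 alternatives, with adjusted p from 3.70e-05 to 0.277 and log2 fold changes from 0.78 to 1.10. DESeq2 gave Cort 0.87 ± 0.18 (adjusted p = 0.000813) and Tac2 0.67 ± 0.14 (adjusted p = 0.000942), and called 0.365% of all genes. Adding the length slope to the fit, edgeR called 1.03% of all genes and 3 of the 9, which were Cort (0.88 ± 0.12, adjusted p = 0.000113), Tac2 (0.68 ± 0.13, adjusted p = 0.00877) and Crh (0.59 ± 0.14, adjusted p = 0.0458). Over the alternatives the adjusted p of Tac2 ran from 0.000942 to 0.331 and that of Crh from 0.0195 to 0.963. Leaving out wild-type replicate 3 alone gave Cort 1.02 ± 0.14 (edgeR adjusted p = 0.00205), in a fit that called 0.279% of all genes.

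**Figure D3:**
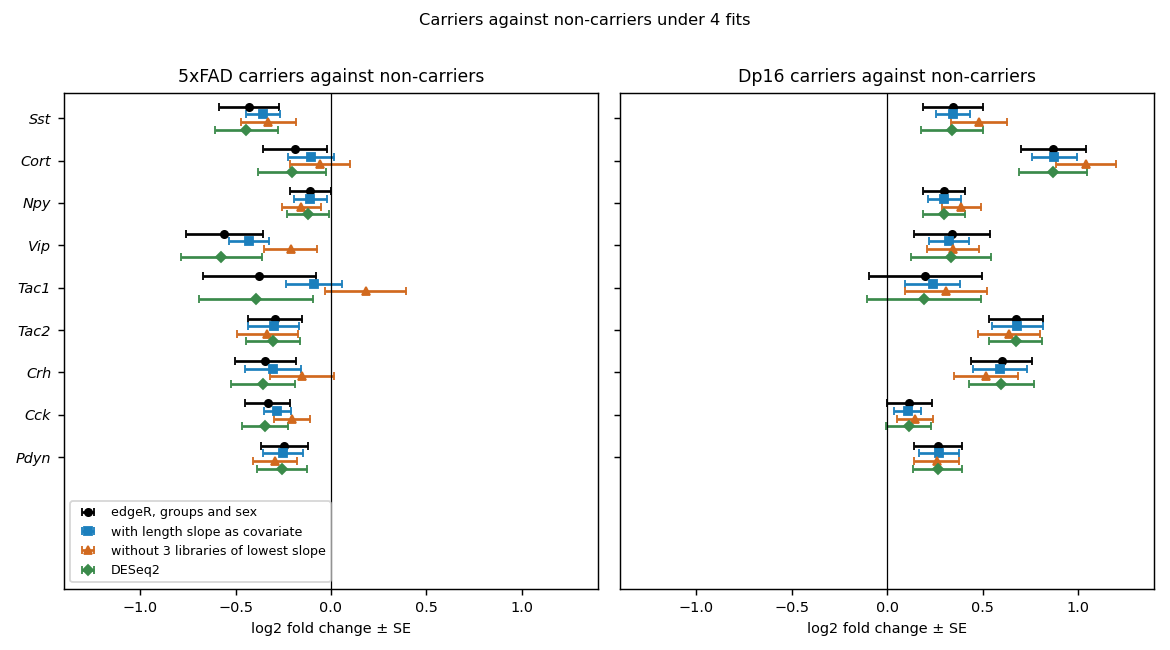
Log2 fold change ± SE (horizontal axis) of each gene in 5xFAD carriers (left) and Dp16 carriers (right) against non-carriers under 4 fits: edgeR with groups and sex, that fit plus the length slope, that fit after the 3 lowest-slope libraries were dropped, and DESeq2. Cort, Tac2 and Crh keep values of 0.52 to 1.04 on the right under all 4 fits, while Tac1 on the left lies between −0.39 and 0.18.

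Both alterations together were also set against wild-type. In 5xFAD-Dp16 against wild-type 4 of the 9 were below 0 and 5 above (58% of all genes were below 0), with a median of 0.02, and edgeR called 0 of the 9 and 0.501% of all genes. Cort was the 1 gene with an unadjusted p under 0.05, which 3.65% of all genes reached with higher means (0.68 ± 0.24, edgeR adjusted p = 0.528). Its 5xFAD-Dp16 libraries overlapped wild-type in 1 pair of values, 12.6 CPM in 5xFAD-Dp16 replicate 4 and 14.6 CPM in wild-type replicate 3. With the slope as a covariate Cort rose by 0.77 ± 0.17 (edgeR adjusted p = 0.0130, range over 27 alternatives 0.00220 to 1.00), and 2.04% of all genes were called. Sst was at −0.09 ± 0.22, Npy at 0.19 ± 0.16, Tac2 at 0.38 ± 0.20 and Crh at 0.26 ± 0.23, while Vip was at −0.22 ± 0.28, Cck at −0.22 ± 0.17, Tac1 at −0.18 ± 0.42 and Pdyn at 0.02 ± 0.18. Without wild-type replicate 3, Tac1 was at 0.51, Vip at 0.10 and Sst at 0.14, and 2 of the 9 were below 0.

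Between the sexes, 8 of the 9 genes had lower means in females, as had 46.6% of all genes, with log2 fold changes from −0.44 for Tac1 to 0.03 for Cck. None had an unadjusted p under 0.05, against 2.93% of all genes, and edgeR called 0 of the 9 and 0.0456% of all genes. Sst averaged 494 CPM in females and 448 in males of wild-type, 533 and 501 in Dp16, 227 and 390.1 in 5xFAD, and 407 and 489 in 5xFAD-Dp16. Female means were thus higher in both groups without the transgenes and lower in both with them, which with 2 libraries per sex and group was not tested. In wild-type the females read 618 CPM (replicate 3) and 370 CPM, the highest and the lowest value of that group.

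The slope fit also called Cort in Dp16 against wild-type (0.85 ± 0.17, edgeR adjusted p = 0.0210, range over 27 alternatives 0.000853 to 1.00; 0.251% of all genes called) and Cort and Sst in 5xFAD-Dp16 against 5xFAD (0.695% of all genes). Sst there rose by 0.59 ± 0.12 (edgeR adjusted p = 0.0290, range over 27 alternatives 0.029 to 1.00) and Cort by 0.90 ± 0.17 (edgeR adjusted p = 0.00919, range over 27 alternatives 0.00919 to 1.00). Cort was also called in 5xFAD-Dp16 against wild-type without wild-type replicate 3 (0.593% of all genes called) and without the 3 libraries of lowest slope (0.956%), and in Dp16 carriers without those 3 (0.197%), without the low-count filter (0.359%) and by limma on log2 RPKM (0.125% and 0.131% with pseudocounts of 0.1 and 1). The fit without the filter called Vip in 5xFAD carriers (2.08%).

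Sample weights estimated with voom also changed the calls. They called 5 of the 9 in Dp16 against wild-type, where 30.7% of all genes were called, 8 in Dp16 carriers (17.6%) and 2 between the sexes (21.8%). The 5 in Dp16 against wild-type were Cort, Crh, Tac1, Tac2 and Vip, with Tac1 at 0.85 in place of −0.05. They called 1 of the 9 in 5xFAD against wild-type (6.51%), 1 in 5xFAD-Dp16 against 5xFAD (0.194%), 1 in 5xFAD-Dp16 against wild-type (2.56%) and 1 in 5xFAD carriers (4.59%).

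The level of some of these genes moved with the length slope of the library. All 9 are short transcripts of 566 to 2386 bases. The 11657 protein-coding genes that entered the slope had a median length of 3508 bases, above that of every member. After each group's mean was taken out, Pearson's r with the slope over 16 libraries was −0.83 for Tac1 (rho −0.83), −0.82 for Vip (rho −0.83), −0.73 for Sst (rho −0.78) and −0.71 for Cck (rho −0.64). Their permutation p-values of r, drawn within groups and adjusted over the 9 genes, were 0.00495, 0.0018, 0.0081 and 0.026, and those of rho 0.00765, 0.00594, 0.00765 and 0.0336. Leaving out the 2 libraries most distant from the median slope (wild-type replicates 3 and 1), r was −0.75 for Tac1, −0.75 for Vip, −0.67 for Sst and −0.51 for Cck.

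Cort had r of −0.65 (adjusted permutation p = 0.106; rho −0.66, adjusted p = 0.0336), which rests on those 2 libraries, since r without them was −0.27. Crh (−0.35), Pdyn (0.13), Tac2 (0.11) and Npy (0.05) had adjusted permutation p-values of 0.173 and above. Levels of Tac1, Vip, Sst and Cck were thus lower where the slope was high. By its definition a high slope goes with lower levels of short transcripts as a whole. The share of all genes with such an r was not determined. The slope comes from the same counts as the levels, and group means of the slope for wild-type were 0.00 ± 0.31, for Dp16 −0.06 ± 0.15, for 5xFAD 0.02 ± 0.14 and for the combination 0.04 ± 0.11. Its values move with those of 4 of the genes, and the fits with the slope and without the 3 lowest libraries are given above.

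**Figure D4:**
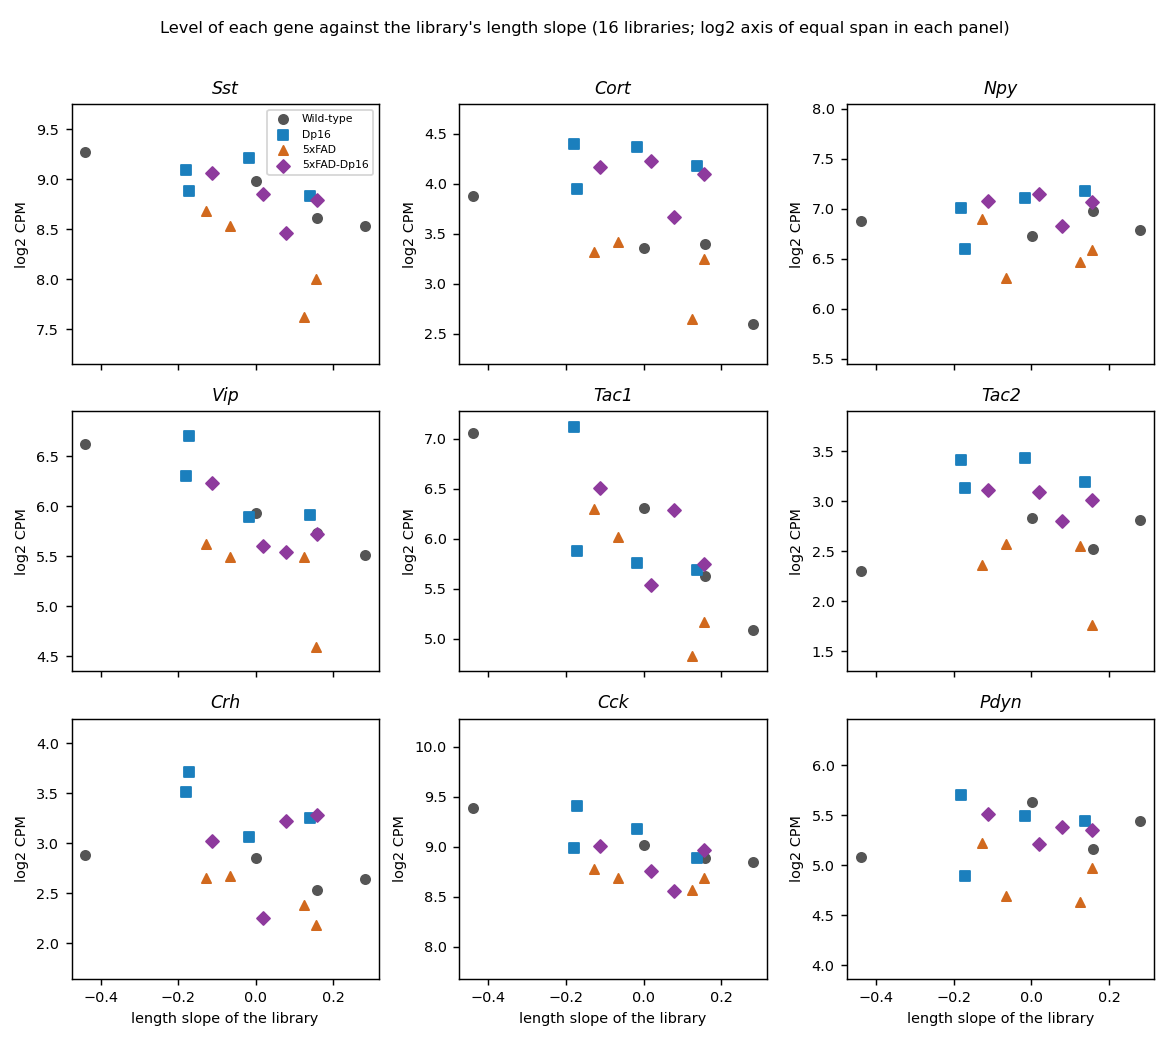
Log2 CPM of each gene (vertical axis, equal span in each panel) against the length slope of the library (horizontal axis), with the 4 groups by colour and shape. Tac1, Vip, Sst and Cck run downward from left to right, and all 4 Dp16 points of Tac2 lie above all 4 wild-type points.

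Between the 9 genes, 26 of 36 pairs had a positive r of group-centred log2 CPM over the 16 libraries. Sst and Cort were the 1 pair whose r passed the adjustment over 36 pairs (r = 0.80, permutation p = 0.00044, adjusted p = 0.0158, and rho = 0.80, permutation p = 0.00135, adjusted p = 0.0486). Their r was 0.79 without the 2 libraries farthest from the median of Sst (5xFAD replicates 1 and 3) and 0.62 once the length slope was removed from both. The share of all genes with such an r to Sst or Cort was not determined. The closest gene outside the 9 reached 0.93 with Sst and 0.92 with Cort. Vip and Cck had r of 0.67 (adjusted permutation p = 0.0994; 0.23 with the slope removed) and Sst and Tac1 0.73 (adjusted permutation p = 0.0994; 0.32 with the slope removed).

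Among 13496 genes whose mean log2 CPM was 1 or more, the 3 with the highest group-centred r over the 16 libraries were named for each gene. For Sst these were Ap1s1 (0.93), Syt5 (0.93) and Caly (0.92), for Vip Zfp639 (0.97), Zfp9 (0.96) and Nt5c3 (0.96), and for Tac1 Klhl13 (0.98), Tesc (0.97) and Spock3 (0.96). All 9 of those genes correlated with the length slope too, with r from −0.91 to −0.71. For Cort they were Clptm1l (0.92), Ruvbl2 (0.89) and Ppp4c (0.88), and for Cck Olfm3 (0.94), Ttc9c (0.94) and A030001D20Rik (0.93). The r of the genes named for Cort and Cck with the slope ran from −0.77 to −0.62. For Pdyn they were Meis2 (0.91), Gpr6 (0.87) and Dgkb (0.86). Npy was closest to Lrrc28 (0.87), Rimkla (0.87) and Engase (0.87), Tac2 to Gpc4 (0.87), Xpot (0.86) and Il1rapl1 (0.84), and Crh to Gm6712 (0.84), Fam210a (0.83) and Ino80dos (0.82). The genes named for Crh had r with the slope from −0.65 to −0.40, and those for Pdyn, Npy and Tac2 from −0.11 to 0.36. The values of r between genes are descriptions picked as the highest of many.

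**Figure D5:**
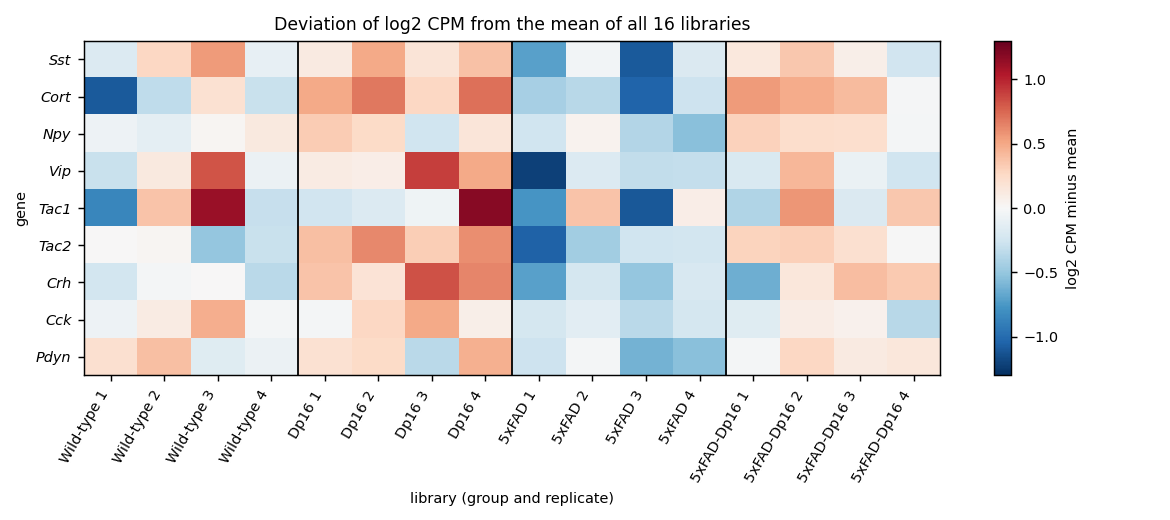
Deviation of each gene's log2 CPM from its mean over all 16 libraries (colour, blue lower and red higher) for each library by group and replicate. Cort and Tac2 are above their mean or close to it in all 8 Dp16 carrier libraries, and the highest Tac1 values are in wild-type replicate 3 and Dp16 replicate 4.

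None of the receptor genes of these peptides was called in 5xFAD against wild-type or in Dp16 carriers. Of 18 genes for receptors and the Crh binding protein, 17 were tested, and edgeR called 0 higher and 0 lower in 5xFAD against wild-type, with a median of −0.13. Of the somatostatin receptor genes, Sstr1 was at −0.20 ± 0.23, Sstr2 at −0.49 ± 0.24 and Sstr3 at −0.31 ± 0.21. The 4 5xFAD libraries of Sstr2 were all below wild-type, as were those of 1.52% of all genes. Sstr4 averaged 4.61 CPM in wild-type and 4.94 CPM in 5xFAD, and Sstr5 0.776 and 0.585 CPM. Npy1r, a neuropeptide Y receptor, was at 0.05 ± 0.21, Vipr1, a VIP receptor, at −0.01 ± 0.28, and Cckbr, the main cholecystokinin receptor of brain, at −0.13 ± 0.23. Tacr1, the substance P receptor, was at −0.98 ± 0.43 and Oprk1, the kappa opioid receptor, at −0.45 ± 0.20, with edgeR adjusted p of 0.619 and 0.643. Crhbp, which binds Crh and is made by somatostatin cells, was at −0.58 ± 0.29, and Crhr2 at 1.28 ± 0.45, both uncalled (edgeR adjusted p = 0.762 and 0.356). In Dp16 carriers the list had a median of −0.03 and 0 calls.

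Genes that process and store the precursors were tested as a list of 15, with 0 called in 5xFAD against wild-type and a median of −0.27. The largest difference by p was that of Scg2, a dense-core vesicle granin (−0.59 ± 0.16, edgeR adjusted p = 0.0956), followed by Pam, which amidates peptides (−0.23 ± 0.11, adjusted p = 0.697), and Pcsk1, a precursor-cleaving convertase (−0.54 ± 0.26, adjusted p = 0.726). In Dp16 carriers their median was 0.08, with 0 called. Of 8 peptidases that degrade neuropeptides, 1 was called lower in 5xFAD against wild-type, as were 0.0114% of all genes. It was Mme, encoding neprilysin, which cleaves substance P, somatostatin and amyloid peptides (15.8 to 8.76 CPM, −0.85 ± 0.20, edgeR adjusted p = 0.0424). No gene, Mme included, was called lower with the replicate block, with only the groups compared, or without any 1 of 9 libraries (wild-type replicate 2, Dp16 replicates 2, 3 and 4, 5xFAD replicates 1, 3 and 4, 5xFAD-Dp16 replicates 2 and 3). The other 7 peptidases were uncalled.

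Other neuropeptide genes of cortex, 8 tested of 9, had a median of −0.40 in 5xFAD against wild-type with 0 called. Adcyap1, encoding PACAP, was at −0.66 ± 0.22 (edgeR adjusted p = 0.310) and Penk, the enkephalin precursor, at −0.48 ± 0.29 (adjusted p = 0.877). In Dp16 carriers all 8 were above 0, with a median of 0.29 and 0 called. Of 10 genes induced by neuronal activity, 9 were below 0 in 5xFAD against wild-type, with a median of −0.42 and 0 called. Nptx2, an activity-induced pentraxin, was at −0.64 ± 0.24 (edgeR adjusted p = 0.431) and Bdnf at −0.43 ± 0.17 (adjusted p = 0.502).

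Markers of the cells that make these peptides, other than the peptides themselves, were uncalled in the same 2 comparisons. In 5xFAD against wild-type, 9 of 10 general GABAergic genes were below 0 (median −0.34, 0 called), with Gad1, which makes GABA, at −0.35 ± 0.14 (edgeR adjusted p = 0.527). Their summed level was 539 to 977 CPM in wild-type and 682 to 736 CPM in 5xFAD. The 539 CPM were wild-type replicate 3 alone, and the other wild-type libraries had 844 to 977 CPM. Markers of Sst and Pvalb interneurons had a median of −0.23 (9 of 10 below 0, 0 called; 393 to 763 and 332 to 400.1 CPM) and those of Vip, Lamp5 and Sncg interneurons −0.32 (8 of 10 below 0, 0 called; 376 to 469 and 323 to 405 CPM). The 763 CPM of Sst and Pvalb markers were also wild-type replicate 3, with 393 to 468 CPM in the other wild-type libraries. In Dp16 carriers the medians of the 3 lists were 0.04, 0.04 and 0.16, with 0 called. No marker in them was at 0 in a whole group. Each list had 1 marker higher with an unadjusted p under 0.05 and 0 lower. The largest log2 fold changes were 0.27, 0.95 and 0.39 in the same order. Of the 10 Sst and Pvalb markers, 6 were above 0 and 4 below. Among them Chodl, with 10 to 118 counts per library, averaged 2.97 CPM for Dp16 against 1.68 for wild-type. It averaged 3.03 CPM for the combination against 1.44 for 5xFAD. Neurons in general had a median of −0.29 in 5xFAD against wild-type (8606 to 11096 and 7094 to 7852 CPM). Here too the 11096 CPM were wild-type replicate 3, with 8606 to 8613 CPM in the other wild-type libraries.

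Other cell types and tissues moved with the groups too, and their part in the results was not tested. All 6 microglial markers were above 0 in 5xFAD against wild-type (389 to 453 and 1125 to 1573 CPM summed), with 4 called higher. All 6 astrocyte markers were above 0 too (2426 to 4860.2 and 4950.3 to 7631 CPM), with 2 called higher. Of all genes, 1.5% were called higher there. All 8 striatal markers were below 0 in 5xFAD against wild-type (median −0.25, 0 called; 777 to 1370.1 and 601 to 1107 CPM), and striatum expresses Tac1 and Pdyn. Choroid plexus markers had a median of 1.74 in Dp16 carriers (0 of 6 called). All 6 were above 0, 4 of them with an unadjusted p under 0.05, against 2.02% of all genes higher at that level. Their summed levels were 13.96 to 319 CPM for wild-type, 9.87 to 1281 for Dp16, 18.8 to 630.3 for 5xFAD and 14.1 to 2298 for the combination. Hypothalamic markers, from a region that expresses several of these peptides, summed to 3.38 to 72.7, 2.89 to 12.01, 4.14 to 28.7 and 3.34 to 8.61 CPM in the same order, with a median of −1.35 in Dp16 carriers over the 4 tested. The 72.7 CPM are wild-type replicate 3 alone, and the other wild-type libraries had 3.38 to 5.74 CPM. Replicate 3 also had the highest wild-type values of Sst, Cort, Vip, Tac1, Crh and Cck and the lowest of Tac2 and Pdyn.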

How the data were processed

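The deposited tables hold read counts per gene, and RPKM that the authors computed from them, for 16 cortex libraries. RNA was extracted with TRIzol and made into strand-specific poly-A libraries sequenced paired-end, per the labels' protocols. Alignment and counting tools listed in the submitters' processing notes are HISAT2 2.1.0, HTSeq 0.6.1 and SAMtools 1.5, with GRCm38 as the build, and the deposited table names GENCODE M24. The strand setting of the counting step is not stated in the labels or headers. The deposited RPKM equal the counts rescaled by total and length.

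Counts were tested with edgeR 4.0.16 (R 4.3.3): TMM scaling, filterByExpr with a minimum count of 10, a robust quasi-likelihood fit to all 16 libraries with group and sex as terms, and Benjamini-Hochberg adjustment over 17555 genes, with an adjusted p under 0.05 as the call. Pairwise comparisons, carriers averaged over backgrounds, the interaction and sex were contrasts of that fit. Alternatives were DESeq2 1.42.0, limma 3.58.1 on log2(RPKM + 0.1) and log2(RPKM + 1), voom quality weights, other scaling, filter, sex term and samples, a replicate block, the length slope as a covariate, and leaving out libraries. The scripts were tested on simulated data. Correlations used 100000 permutations within groups. Depth was 16874481 to 22912168 counts per library.

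The 9 genes and all lists were chosen with earlier results of these data known. All 9 genes are described, with the 3 genes most like each by r, and of each list up to 4 genes of smallest unadjusted p in 5xFAD against wild-type, with receptors named by their ligand. Estimates outside that rule, for members above an unadjusted p of 0.05 in the other comparisons, were named after their values were seen. Promoter windows come from RefSeq and gene coordinates from GENCODE M21. Replicate numbers were checked for pairing: 12 of 24 same-number correlations exceeded 0.1 (range −0.63 to 0.85), which does not settle whether they mark pairs. The numbers were not taken as pairs because nothing states that they mark a litter, batch or day, and same-numbered samples differ in sex. Replicate libraries differed by more than counting noise (chi-square per degree of freedom 15.8 to 271 over 24 pairs).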

Additional observations from a re-analysis of the deposited data

Results flagged for a closer look

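Tac1 in Dp16 stood out for 1 library: replicate 4, a male, had 139 CPM, while the other 3 Dp16 libraries had 51.4, 54.0 and 58.7 CPM. By Dixon's gap criterion it was the 1 library that stood apart in the 36 gene and group combinations examined, where chance gives about 1 in 20. The same library had the second lowest length slope, −0.18.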

How the results depend on the processing

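None of the 9 genes was called in any comparison with edgeR's settings as reported, and the alternatives changed that count as follows. Adding the length slope to the model gave 3 calls in 5xFAD against wild-type, 1 in Dp16 against wild-type, 2 in 5xFAD-Dp16 against 5xFAD, 1 in 5xFAD-Dp16 against wild-type, 3 in 5xFAD carriers and 3 in Dp16 carriers. With voom quality weights the counts were 1 (Pdyn), 5, 1, 1, 1 and 8 in the same order, and 2 between the sexes. In Dp16 carriers DESeq2 called 2, no low-count filter 1, and limma on log2 RPKM 1 with either pseudocount. Without the 3 libraries of lowest slope 1 was called in Dp16 carriers and 1 in 5xFAD-Dp16 against wild-type. Without a filter 1 (Vip) was called in 5xFAD carriers. Leaving out single libraries gave 0 to 1 in Dp16 carriers and in 5xFAD-Dp16 against wild-type, the 1 being Cort without wild-type replicate 3. The cause was not tested.

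Some estimates changed sign, all of them uncalled except Tac1 with voom in Dp16 against wild-type. In 5xFAD against wild-type Cort was 0.11 without the 3 lowest-slope libraries and 0.11 with voom weights (−0.38 to 0.090 leaving out single libraries), and Tac1 0.028 without those 3 (−0.85 to 0.023). In 5xFAD-Dp16 against Dp16 Pdyn was 0.021 and 0.019 with limma at pseudocounts of 0.1 and 1 (−0.17 to 0.044), Tac1 0.19 with the slope and 0.33 without the 3 libraries (−0.33 to 0.24), and Npy −0.10 without them (−0.060 to 0.11). In Dp16 against wild-type Tac1 was 0.037 without the sex term, 0.12 with limma at either pseudocount, 0.15 without the 3 libraries and 0.85 with voom (−0.39 to 0.62), while single omissions gave Pdyn −0.019 to 0.20, Vip −0.0019 to 0.56 and Cck −0.015 to 0.22. In 5xFAD carriers Tac1 was 0.18 without the 3 libraries. In 5xFAD-Dp16 against wild-type single omissions gave Tac1 −0.40 to 0.51, Vip −0.38 to 0.10, Sst −0.20 to 0.14 and Pdyn −0.060 to 0.11.

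Calls over all genes ranged over the alternatives from 115 to 1143 (266 as reported) in 5xFAD against wild-type, 22 to 244 (68) in 5xFAD-Dp16 against Dp16, 0 to 5393 (1) in Dp16 against wild-type, 1 to 122 (1) in 5xFAD-Dp16 against 5xFAD, 9 to 450 (88) in 5xFAD-Dp16 against wild-type, 0 to 25 (0) for the interaction, 317 to 1052 (383) in 5xFAD carriers, 4 to 3097 (17) in Dp16 carriers and 5 to 3828 (8) between the sexes.

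With a replicate block, 0 of the 9 were called in every comparison, and Cort in Dp16 carriers was 0.87 ± 0.19 (edgeR adjusted p = 0.262). Tac2 and Crh, at 69 to 263 counts per library, are the genes whose precision depth limits most.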
